A study of Mus musculus with 18 samples.

Results

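The 10 tumours of genotype EV belong to a series of 18 tumours that were raised in mice from the mouse breast cancer line PB2. They were selected on their genotype label, and their order was chosen by measured expression of 8 T cell and macrophage genes. Per the labels, all 10 came from mice on the doxycycline diet DOX625. The labels do not expand EV, and they give no strain, sex, age or batch. Whether 2 tumours ever shared a mouse is not stated, and the p-values therefore reflect only how these samples vary. Tumours are called EV 1 to EV 10 by accession order, which is a name and carries no order of its own. The other genotype of the series was not used. RNA was enriched for mRNA and sequenced from directional libraries, and 35030920 to 38464541 reads were counted per tumour.

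A solid tumour is a mixture of cancer cells, infiltrating immune cells, stroma and neighbouring tissue, and RNA of the whole piece adds all of them together. T cells recognise peptides on MHC proteins through a receptor carried by the CD3 complex, and activated T cells and NK cells secrete interferon gamma, which raises MHC and guanylate-binding protein genes in the cells around them. Type I interferons raise an overlapping antiviral program. Macrophages take up debris, present antigen on MHC class II and make complement C1q. In such bulk samples, fewer cells of a type and less RNA per cell cannot be told apart.

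The order was the mean of log2(CPM + 0.5) over 8 genes, where CPM is the usual depth-scaled count, here on TMM-adjusted library sizes. The T cell part held Cd3e and Cd3g, which encode CD3 chains, Cd8a, which encodes the co-receptor of cytotoxic T cells, and Nkg7, a granule gene of cytotoxic T and NK cells. The macrophage part held Adgre1 (the F4/80 antigen), Csf1r (the receptor of colony-stimulating factor 1), C1qa (a C1q chain) and Lyz2 (lysozyme). The score was 3.75 in EV 10, 3.77 in EV 1, 4.01 in EV 3, 4.27 in EV 8 and 4.56 in EV 2. It was 4.71 in EV 5, 4.93 in EV 6, 4.94 in EV 4, 5.02 in EV 9 and 5.37 in EV 7. The tumours form a graded series over a range of 1.62 on the log2 scale, with no separate clusters at its ends. Neighbours such as EV 10 and EV 1, or EV 6 and EV 4, differed by little, and 1 library per tumour gives no error for a single score.

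The mean over the 4 genes of either part is called the T cell score and the macrophage score. The T cell score spread more and set most of the order. It ranged over 2.61 log2 units, from 1.05 in EV 1 to 3.66 in EV 7. The macrophage score ranged over 1.21, from 5.87 in EV 3 to 7.08 in EV 7. Cd8a was at 3.26 CPM in EV 10, 2.04 in EV 1, 5.91 in EV 3, 6.06 in EV 8, 5.70 in EV 2, 8.24 in EV 5, 12.9 in EV 6, 13.4 in EV 4, 16.7 in EV 9 and 21.4 in EV 7. Cd3e ran from 0.896 CPM in EV 1 to 8.12 CPM in EV 7, and Cd3g from 1.60 CPM in EV 10 to 11.1 CPM in EV 9. Adgre1 was lowest in EV 3 at 15.6 CPM and highest in EV 2 at 48.8 CPM, so it did not follow the order closely. C1qa ran from 101 CPM in EV 3 to 304 CPM in EV 7. EV 3 had the lowest macrophage score of the 10 tumours while its T cell score exceeded those of EV 10 and EV 1. These 8 genes made the order, so their values are a description and were not tested.

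**Figure D1:**
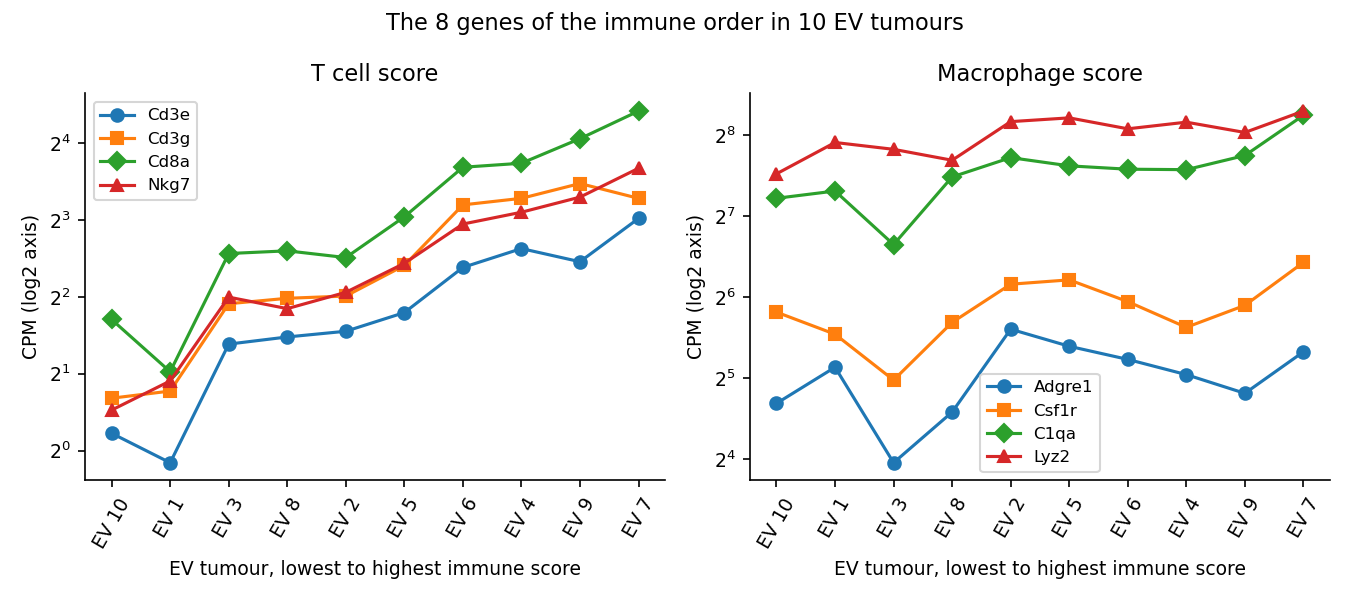
CPM on a log2 axis of the 4 genes of the T cell score (left) and the 4 genes of the macrophage score (right) in each EV tumour, placed from the lowest to the highest immune score. Cd3e spans 0.896 to 8.12 CPM and Cd8a 2.04 to 21.4 CPM, while 3 of the macrophage genes are lowest in EV 3 and all 4 span less.

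Epithelial genes of breast tumour cells were abundant in every tumour. Krt8, a luminal keratin, ran from 474 through 549 to 1066 CPM, and Epcam, an epithelial adhesion gene, from 555 through 645 to 692 CPM. EV 1 stood apart from the other 9 libraries. On the first principal component, which carried 42.6% of the variance, EV 1 lay at -56.0 and the nearest tumour at -6.10. Its keratinocyte level was 3.08 against at most 1.04 in the others, and its skeletal muscle level was 2.92 against at least 6.62, both as mean log2(CPM + 0.5) of the list. EV 1 also lay second from the bottom of the order, so results are given with and without it. Of 13 other measures set against the score, none passed after adjustment. The nearest was the second principal component, with r = 0.73 (permutation p = 0.0105, adjusted p = 0.136) and rho = 0.68 (permutation p = 0.0357, adjusted p = 0.155). It had r = 0.76 without EV 1 and EV 10, the tumours farthest from the median score. The first component had r = 0.63 (permutation p = 0.0297, adjusted p = 0.179) and rho = 0.70 (permutation p = 0.0299, adjusted p = 0.155). Its r was 0.50 without these tumours and 0.52 without EV 1 alone. The luminal epithelial level had r = -0.63 (permutation p = 0.0412, adjusted p = 0.179) and rho = -0.72 (permutation p = 0.0237, adjusted p = 0.155), and r = -0.43 without these tumours. Without EV 1 alone the second component had r = 0.85 (adjusted permutation p = 0.0349). Both components and the score were computed from expression in the same libraries, and the components may include genes of the order. The sign of a component is also arbitrary. These p-values therefore cannot show a relation to a separate measure, and the r values of the components are a description. The muscle level had r = 0.44 (permutation p = 0.212, adjusted p = 0.58; rho = 0.33, p = 0.35, adjusted p = 0.856) and -0.02 without EV 1, so that relation rests on EV 1.

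Every gene with a mean of at least 1 CPM was fitted against the score in edgeR, with the quasi-likelihood test and Benjamini-Hochberg adjustment over 14363 genes, which leaves out the 8 of the order. A slope is the log2 change of a gene per 1 log2 unit of score, and calls were made at adjusted p-values under 0.05. The call was met by 601 genes (4.18% of those tested), of which 439 rose with the score (3.06%) and 162 fell (1.13%). An unadjusted p under 0.05 was met by 2440 of the 14363 genes (edgeR), which is the baseline for unadjusted counts given below. The median slope of all genes was 0.00. Rises were steeper than falls: the median called slope was 0.74 upward and -0.36 downward, and 112 genes rose with a slope of at least 1 while 11 fell with a slope of at most -1. Leaving out EV 1 left 256 rising and 50 falling. Leaving out EV 7, the top of the order, left 235 rising. Calls held without any one tumour for 170 of the rising genes and 30 of the falling ones. The order and the genes were read from the same libraries, so a rise says that RNAs varied together over these tumours.

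T cell genes outside the order rose with it: 18 of 20 fitted members of the T cell list were called, with a median slope of 1.39. Cd8b1, which encodes the second chain of CD8, was at 1.11 CPM in EV 10, 1.03 in EV 1, 1.89 in EV 3, 1.49 in EV 8, 3.10 in EV 2, 2.36 in EV 5, 5.69 in EV 6, 4.72 in EV 4, 6.45 in EV 9 and 8.59 in EV 7. The 4 tumours with the highest scores held the 4 highest Cd8b1 values, and the slope was 1.87 ± 0.19 (SE; adjusted p = 0.000316, edgeR). Trac, the constant region of the T cell receptor alpha chain, ran from 0.787 through a median of 3.87 to 9.26 CPM, with a slope of 1.80 ± 0.20 (adjusted p = 0.000501, edgeR). Cd3d, another CD3 chain, had a slope of 1.51 ± 0.19 (adjusted p = 0.000912, edgeR). Cd4, the co-receptor of helper T cells, had a shallower slope of 1.07 ± 0.22, and its adjusted p was 0.0155 with all tumours and 0.0806 without EV 1 (edgeR). Cd247 and Bcl11b had slopes of 0.73 and 0.87 and were not called by edgeR (adjusted p = 0.0578 and 0.0998), while DESeq2 called all 20. Without EV 1, 15 of the 20 were called.

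Of 18 cytotoxic T and NK cell genes, 11 passed the expression minimum, and 9 of those rose. Ccl5, a chemokine that activated T and NK cells make in quantity, was at 6.74 CPM in EV 10, 6.98 in EV 1, 13.0 in EV 3, 11.7 in EV 8, 19.5 in EV 2, 17.4 in EV 5, 21.9 in EV 6, 24.9 in EV 4, 21.7 in EV 9 and 42.7 in EV 7. EV 7 stood well above the rest, and the slope was 1.42 ± 0.12 (adjusted p = 0.000165, edgeR). Il2rb, a chain of the interleukin 2 receptor, had a slope of 1.46 ± 0.15. Klrk1, the activating receptor NKG2D, had a slope of 1.28 ± 0.17. The killing genes were scarcer: Gzmb, granzyme B, ran from 1.09 to 6.56 CPM and Prf1, perforin, from 0.381 to 4.61 CPM. Their adjusted p-values were 0.0266 and 0.0128 with all tumours, and 0.11 and 0.061 without EV 1 (edgeR). Eomes, a transcription factor of memory and NK cells, was the exception in direction, with a slope of -0.38. It was not called, though its unadjusted p was under 0.05 (edgeR). Without EV 1, 6 of the 11 were called.

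Genes of T cell restraint rose too, 7 of 12 fitted members of the checkpoint and regulatory list. Pdcd1, the inhibitory receptor PD-1, ran from 1.60 CPM in EV 1 through a median of 4.27 to 6.89 CPM in EV 7. Its slope was 1.15 ± 0.21 (adjusted p = 0.00749, edgeR). Lag3, another inhibitory receptor, ran from 3.48 to 12.0 CPM with a slope of 0.90 ± 0.14, and Tigit had a slope of 1.23 ± 0.18. Cd274, which encodes the PD-1 ligand PD-L1, had a slope of 0.78 ± 0.17 (adjusted p = 0.0203, and 0.0911 without EV 1, edgeR). Foxp3, the factor that defines regulatory T cells, had a slope of 0.40 ± 0.21 and Ctla4 one of 0.98 ± 0.28, and neither was called (adjusted p = 0.368 and 0.0774, edgeR). Without EV 1, 4 of the 12 were called.

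Macrophage and monocyte genes outside the order followed it less uniformly. Of 24 fitted, 7 rose, with a list median of 0.43, and 21 slopes were positive. At an unadjusted p under 0.05 in edgeR 13 rose and 1 fell, and DESeq2 called 11 rising and 1 falling. The 3 with the smallest adjusted p were Aif1, a cytoskeletal gene of macrophages, with a slope of 0.85 ± 0.11, Ly6c2, a surface gene of inflammatory monocytes that some T cells also carry, with 1.62 ± 0.24, and the fractalkine receptor Cx3cr1 with 0.75 ± 0.12. Aif1 ran from 10.7 CPM in EV 3 through a median of 19.8 to 35.2 CPM in EV 7. Cd68, a lysosomal macrophage gene, had a slope of 0.17 ± 0.21, the mannose receptor Mrc1 one of 0.15 ± 0.25, the lipid receptor Trem2 one of 0.06 ± 0.23, and Arg1, arginase, one of -0.23 ± 0.18. None of these 4 was called (adjusted p = 0.745, 0.826, 0.936 and 0.593, edgeR). Ptprc, which encodes the pan-leukocyte protein CD45, ran from 24.0 CPM in EV 3 through 42.8 to 64.9 CPM in EV 7, with a slope of 0.68 ± 0.13 (adjusted p = 0.0118, and 0.0714 without EV 7, edgeR). Among other leukocytes, 2 of 10 members of the dendritic cell list rose, and 1 did without EV 1, while 8 of the 10 slopes were positive. At an unadjusted p under 0.05 in edgeR 6 of them rose and 1 fell, and DESeq2 called 6 rising and 0 falling. The members called by edgeR were Itgae with 1.19 ± 0.20 and Irf8 with 0.76 ± 0.18. Flt3 had a slope of 0.89 and was not called (adjusted p = 0.0779, edgeR). Which cells carried the Itgae RNA cannot be read from bulk samples. Irf8 lost its call in 8 of the leave-one-out fits. In the B and plasma cell list 1 of 6 rose, Cd22, which lost its call in 9 of those fits, and 0 of 4 neutrophil genes were called (1 rose and 1 fell at an unadjusted p under 0.05 in edgeR, and DESeq2 called 1 rising).

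**Figure D2:**
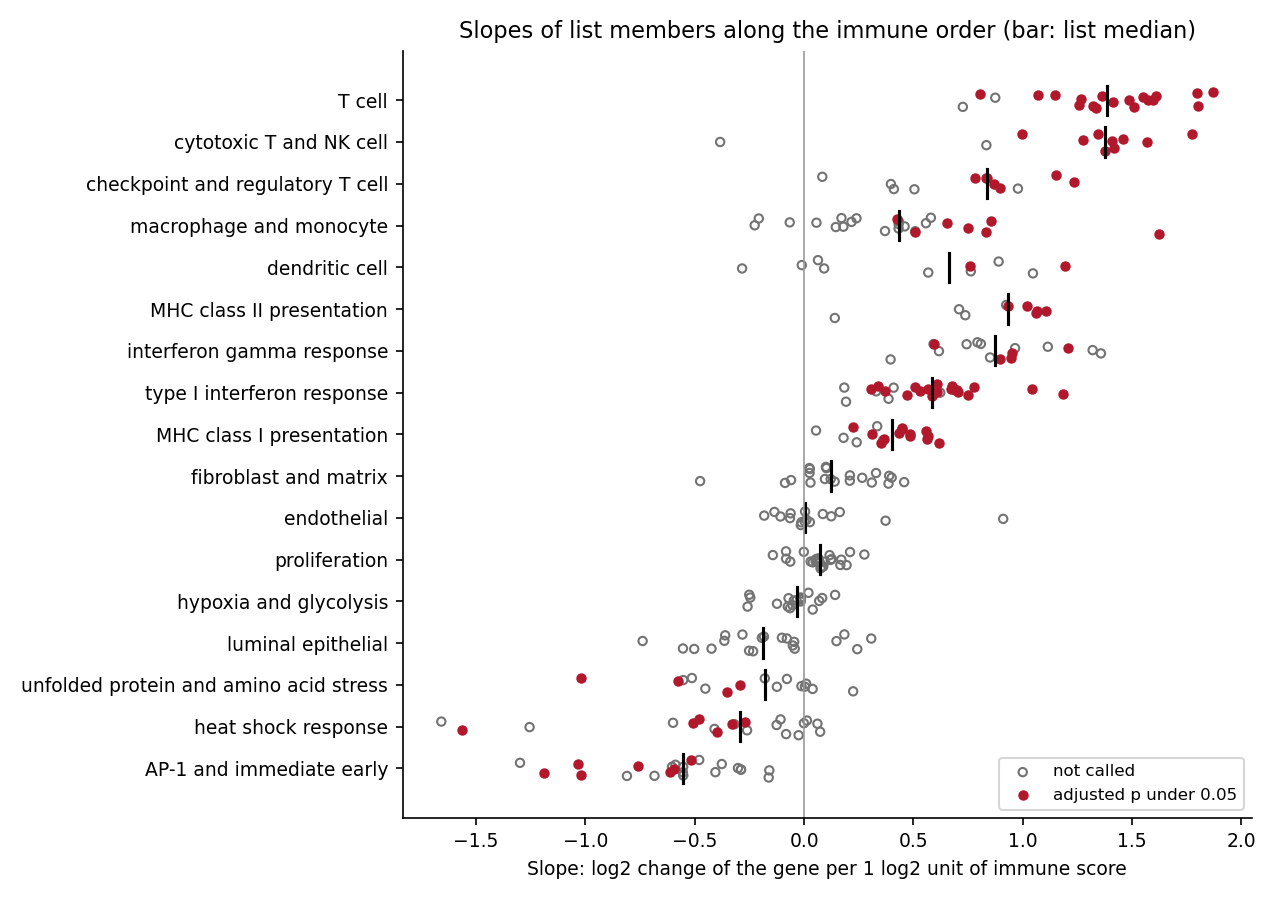
Slope of each fitted member of 17 gene lists, in log2 change per 1 log2 unit of immune score, with filled points for members at an adjusted p under 0.05 and a bar at the list median. T cell genes lie farthest right (median 1.39), stromal, proliferation and hypoxia genes around 0, the 23 AP-1 genes left of 0, and the heat shock genes left of 0 but for 3.

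Antigen presentation genes rose together. All 9 fitted genes of MHC class II presentation had positive slopes, with a median of 0.93, and 5 were called. H2-Ab1, a class II beta chain on chromosome 17 (34257689 to 34269419, mm10), was at 200 CPM in EV 10, 153 in EV 1, 251 in EV 3, 292 in EV 8, 337 in EV 2, 449 in EV 5, 348 in EV 6, 454 in EV 4, 432 in EV 9 and 670 in EV 7. Its slope was 1.06 ± 0.11 (adjusted p = 0.000444, edgeR). Cd74, the invariant chain that escorts class II molecules, ran from 308 through 714 to 1540 CPM, with a slope of 1.02 ± 0.16. Ciita, the activator of class II genes, had a slope of 0.92 ± 0.24 and was not called (adjusted p = 0.0576, edgeR). Without EV 1, 4 of the 9 were called.

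The class I genes moved less, and nearly all in 1 direction: 13 of 18 were called, 18 of 18 slopes were positive, and the median was 0.40. H2-T23, which encodes the non-classical molecule Qa-1, ran from 156 CPM in EV 1 through 249 to 362 CPM in EV 7, with a slope of 0.56 ± 0.09 (adjusted p = 0.00505, edgeR). H2-K1, a classical class I heavy chain, was far more abundant, at 2361 to 3533 CPM, and its slope was 0.31 ± 0.06. Class I calls rested on EV 1 to a large degree, since 1 of the 18 was called without it, while the median slope was 0.32. Reads from closely related H2 genes may be split between them in counting, so single members are uncertain.

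Type I interferon response genes rose in 19 of 25 cases, with all 25 slopes positive and a median of 0.59. Ifi27l2a, an interferon-induced gene on chromosome 12 (103442167 to 103443680, mm10), had the smallest adjusted p of any named gene. It was at 45.6 CPM in EV 10, 49.6 in EV 1, 57.4 in EV 3, 79.7 in EV 8, 101 in EV 2, 91.2 in EV 5, 104 in EV 6, 114 in EV 4, 136 in EV 9 and 151 in EV 7. Its values climbed with the score except that EV 5 lay below EV 2, and the slope was 1.04 ± 0.07 (adjusted p = 3.92e-05, edgeR). Irf7, the transcription factor that amplifies the type I response, had a slope of 0.75 ± 0.10, and Cmpk2, an interferon-induced mitochondrial kinase, one of 0.69 ± 0.08. Without EV 1, 11 of the 25 were called and the median was 0.52.

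Of 16 fitted interferon gamma response genes, 5 rose, all 16 slopes were positive, and the median was 0.87. Nlrc5, the activator of class I genes, had a slope of 0.60 ± 0.11 and lost its call without EV 1 or EV 7. Gbp3, a guanylate-binding protein, ran from 75.6 CPM in EV 1 through 184 to 357 CPM in EV 7, with a slope of 0.95 ± 0.19 (adjusted p = 0.0243, and 0.0673 without EV 1, edgeR). Cxcl9, the chemokine that draws CXCR3-bearing T cells, ran from 66.3 to 717 CPM with a slope of 1.32 ± 0.44, and was not called (adjusted p = 0.159, edgeR). Without EV 1, 0 of the 16 were called by edgeR, with a median slope of 0.75. With all tumours, 16 of 16 had an unadjusted p under 0.05 in edgeR, and DESeq2 called 13. Among 21 fitted chemokines and chemokine receptors 7 rose, including Cxcr3 with a slope of 1.40 ± 0.28, Cxcr6 with 1.58 ± 0.24 and Ccl12 with 0.83 ± 0.14. Without EV 1, 3 of the 21 were called, and Cxcr3 was not (adjusted p = 0.0559, edgeR).

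Promoters of interferon-response genes often carry an element bound by interferon regulatory factors, and its core was looked for in the RefSeq windows from 250 bases before to 50 after each start. It was spelled as TTTC, any 2 bases and TTTC again, which reads as GAAA, any 2 bases and GAAA on the other strand, and both strands were searched. Of 10629 fitted genes with a window, 3.86% held the core. It was in 19.6% of 332 rising genes, 3.1% of 129 falling genes, 9 of 17 type I genes, 9 of 11 interferon gamma genes, 4 of 17 class I genes and 0 of 6 class II genes. These shares were not tested, and a match is a description of letters only. The 250 bases before the start of 4 rising genes are shown because they differ in where the core lies (RefSeq, GRCm38.p6, 5′ to 3′ in the direction of the gene, core in capitals).
Ifi206, chr1:173491319-173491568, minus strand: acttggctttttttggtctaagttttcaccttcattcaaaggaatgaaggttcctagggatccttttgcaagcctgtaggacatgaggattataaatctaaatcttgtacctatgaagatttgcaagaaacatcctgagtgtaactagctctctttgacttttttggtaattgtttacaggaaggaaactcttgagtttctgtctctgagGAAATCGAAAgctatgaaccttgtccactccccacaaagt
Oas3, chr5:120777660-120777909, minus strand: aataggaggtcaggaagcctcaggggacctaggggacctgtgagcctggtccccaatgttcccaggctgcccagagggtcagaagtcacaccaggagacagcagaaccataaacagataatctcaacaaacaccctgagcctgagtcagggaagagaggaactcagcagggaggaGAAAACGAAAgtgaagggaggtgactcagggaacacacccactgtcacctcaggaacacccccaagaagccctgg
Gbp3, chr3:142559794-142560043, plus strand: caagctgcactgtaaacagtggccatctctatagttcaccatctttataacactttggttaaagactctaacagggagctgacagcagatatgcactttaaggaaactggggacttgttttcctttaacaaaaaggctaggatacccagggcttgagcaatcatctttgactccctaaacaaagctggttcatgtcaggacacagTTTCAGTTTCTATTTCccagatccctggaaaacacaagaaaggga
H2-T23, chr17:36032702-36032951, minus strand: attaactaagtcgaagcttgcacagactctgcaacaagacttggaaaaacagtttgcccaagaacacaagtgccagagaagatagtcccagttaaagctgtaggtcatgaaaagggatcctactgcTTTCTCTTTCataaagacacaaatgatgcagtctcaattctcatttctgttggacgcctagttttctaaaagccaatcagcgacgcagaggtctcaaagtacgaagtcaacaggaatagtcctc

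The core lies 40 bases before the start in Ifi206, a nucleic acid-binding interferon gene, and 75 bases before it in Oas3, which senses double-stranded RNA. Gbp3 holds 2 overlapping copies, whose first bases lie 45 and 39 bases before the start, and H2-T23 holds 1 at 124 bases. Ifi206 ran from 2.58 CPM in EV 10 to 19.96 CPM in EV 7, with a median of 7.03 CPM and a slope of 1.49 ± 0.14 (adjusted p = 0.000253, edgeR). Oas3 ran from 15.8 CPM in EV 1 to 107 CPM in EV 7, with a median of 37.9 CPM and a slope of 1.40 ± 0.20 (adjusted p = 0.00459, edgeR). All 4 genes were highest in EV 7, and their slopes ran from 0.56 in H2-T23 to 1.49 in Ifi206.

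The steepest rises above 5 CPM included Dnase1l3, a secreted DNase of dendritic cells and macrophages, at 1.79 to 33.9 CPM and a slope of 2.03 ± 0.29. Ms4a4b, a T cell membrane gene, had a slope of 1.74 ± 0.20, and Ltb, lymphotoxin beta, one of 1.61 ± 0.24. Ctsw, a cathepsin of cytotoxic cells, had a slope of 1.38 ± 0.20. These 4 genes kept their calls without any one tumour.

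**Figure D3:**
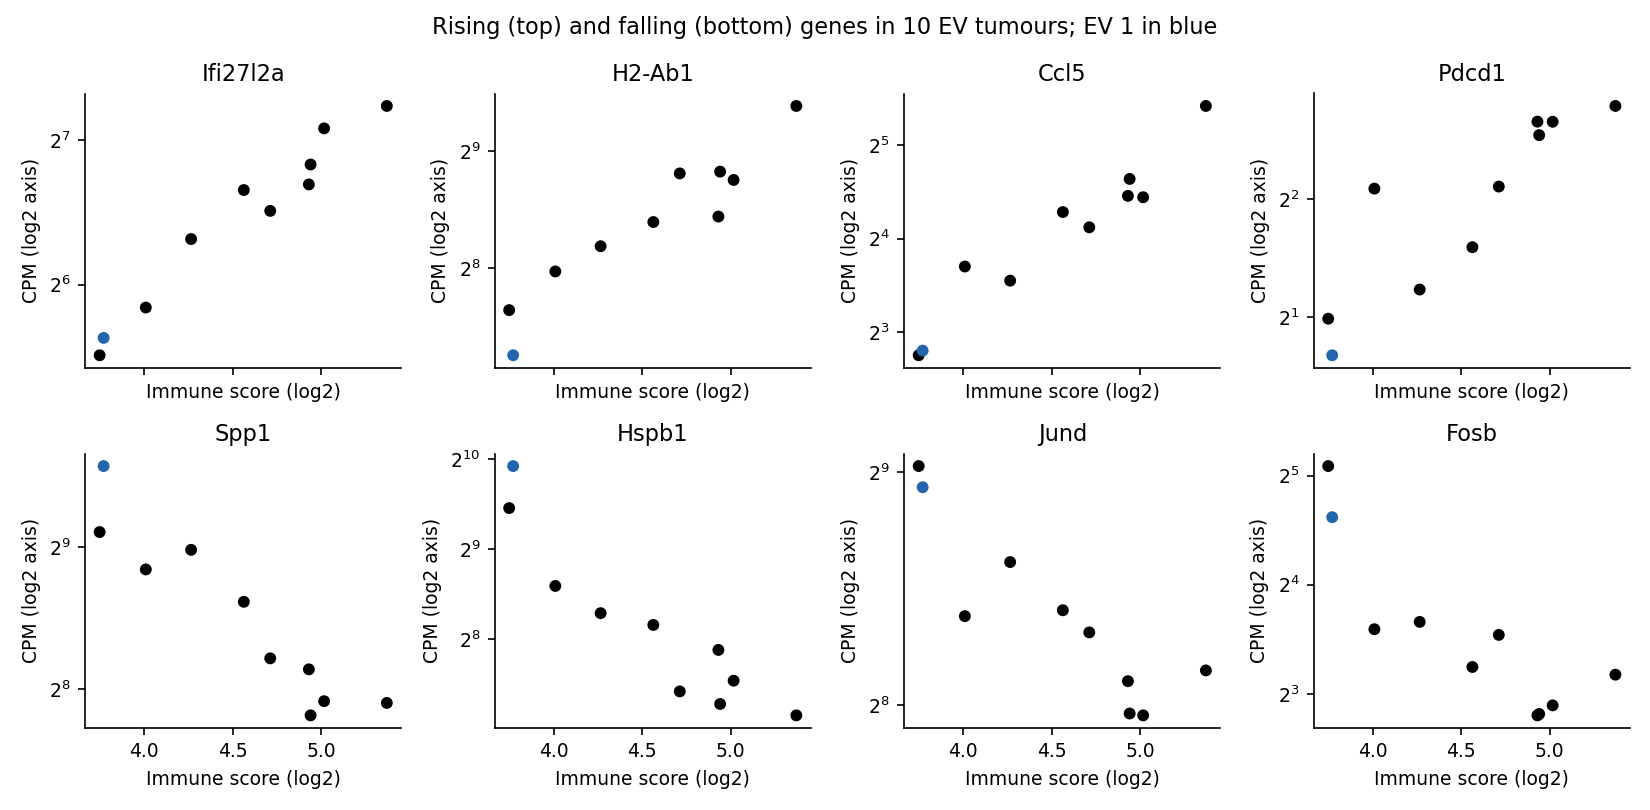
CPM (log2 axis) against the immune score in the 10 EV tumours for 4 rising genes (top) and 4 falling genes (bottom), EV 1 in blue. EV 10 and EV 1, at scores of 3.75 and 3.77, hold the 2 lowest Ifi27l2a values and the 2 highest Hspb1 values.

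Hspb1 and Spp1 were among the abundant genes that fell as the score rose, an order set mostly by the T cell genes. Hspb1, a small heat shock chaperone on chromosome 5 (135887919 to 135889563, mm10), was at 703 CPM in EV 10, 971 in EV 1, 386 in EV 3, 313 in EV 8, 286 in EV 2, 171 in EV 5, 236 in EV 6, 155 in EV 4, 186 in EV 9 and 142 in EV 7. The 5 tumours with the lowest scores held the 5 highest values, and the slope was -1.56 ± 0.19 (adjusted p = 0.00211, and 0.00383 without EV 1, edgeR). Spp1, which encodes the secreted matrix protein osteopontin and lies on chromosome 5 (104435118 to 104441050, mm10), was at 551 CPM in EV 10, 759 in EV 1, 459 in EV 3, 505 in EV 8, 392 in EV 2, 298 in EV 5, 282 in EV 6, 225 in EV 4, 242 in EV 9 and 240 in EV 7. It too separated the lower 5 tumours from the upper 5 without overlap, and its slope was -1.01 ± 0.11 (adjusted p = 0.00059, and 0.0023 without EV 1, edgeR).

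Immediate early and AP-1 genes, which cells induce within minutes of growth signals or stress, had negative slopes, and 7 of 23 fell. Their list and that of the heat shock response were drawn up after the values were seen. Fosb, Dusp8, Atf3 and Klf4, and Hspb1 in the heat shock list, were already among the steepest called falls. The counts of both lists therefore include genes already seen to fall and are a description. All 23 slopes of the AP-1 and immediate early list were negative, and the median was -0.55. Fosb, an AP-1 subunit, was at 34.0 CPM in EV 10, 24.6 in EV 1, 12.1 in EV 3, 12.6 in EV 8, 9.49 in EV 2, 11.6 in EV 5, 6.98 in EV 6, 7.04 in EV 4, 7.43 in EV 9 and 9.03 in EV 7. EV 10 and EV 1 stood well above the other 8, and the slope was -1.19 ± 0.21 (adjusted p = 0.00792, edgeR). Jund, another AP-1 subunit, ran from 249 through 326 to 522 CPM with a slope of -0.59 ± 0.09. Dusp8, a phosphatase of stress kinases, had a slope of -1.03 ± 0.15, and Mafk, a small Maf protein, one of -0.52 ± 0.08. Atf3, a stress-induced factor, and Klf4 had slopes of -1.02 and -0.76, and each lost its call in 8 of the leave-one-out fits. The founding members Fos and Jun had slopes of -0.81 ± 0.39 and -0.68 ± 0.31 and were not called (adjusted p = 0.342 and 0.302, edgeR). Without EV 1, 4 of the 23 were called. With genes on chromosome 5 left out of the fit, 6 were called.

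Of 20 heat shock response genes, 6 fell, with a median of -0.29, and 3 slopes were positive. Without EV 1, 5 were called. With genes on chromosome 5, Hspb1 among them, left out of the fit, 4 were called. Dnajb1, a co-chaperone of HSP70, had a slope of -0.48 ± 0.10 and lost its call in 2 leave-one-out fits, and Zfand2a, a proteasome adaptor, one of -0.51 ± 0.09. The inducible HSP70 genes Hspa1a and Hspa1b had slopes of -1.26 ± 0.42 and -1.66 ± 0.54, and neither was called (adjusted p = 0.159 for each, edgeR). They are near-identical copies, so the split of reads between them is uncertain. In the unfolded protein and amino acid stress list 4 of 15 fell, and 2 did without EV 1. The 4 include Atf3, which is also counted in the AP-1 list. Atf4, the factor that drives amino acid stress genes, had a slope of -0.35 ± 0.07 and its target Trib3 one of -0.58 ± 0.12, with Trib3 far higher in EV 1 (83.0 CPM) than elsewhere (at most 48.5 CPM). Without EV 1, Trib3 had a slope of -0.35 (adjusted p = 0.0121, edgeR).

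Other named falls were single genes. Cebpd, a transcription factor of inflammation, had a slope of -0.93 ± 0.16, and Adcy8, an adenylyl cyclase, one of -0.92 ± 0.19. Adcy8 lost its call in 4 leave-one-out fits, including that without EV 1 (adjusted p = 0.0637, edgeR). Tnfrsf12a, the receptor of the cytokine TWEAK, had a slope of -0.85 ± 0.16, and -0.57 without EV 1. In the TGF-beta list 2 of 14 fell, the ligand Tgfb2 with -0.70 ± 0.15 and Ccn2, a matrix-associated target, with -0.53 ± 0.13, while the list median was 0.04. Both lost their calls without EV 1 (adjusted p = 0.118 and 0.143, edgeR).

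Tumour cell and stromal lists held few calls along the order. Calls were absent in edgeR among 21 fibroblast and matrix genes, 16 endothelial genes, 24 proliferation genes, 19 hypoxia and glycolysis genes and 20 luminal genes, whose medians were 0.12, 0.00, 0.07, -0.03 and -0.19. Over all 14363 genes, 2440 had an unadjusted p under 0.05 in edgeR. At that threshold, 3 of the fibroblast genes, 2 of the endothelial, 3 of the proliferation, 1 of the hypoxia and 6 of the luminal genes passed, the last all downward. DESeq2 called 2, 1, 0, 0 and 3 of them. Of the luminal slopes 16 of 20 were negative, and with the T cell score as the order edgeR called 5 luminal genes falling. Slopes near 0.3 were mostly missed in simulated counts, so many small changes could go uncalled. Some slopes of that size were called in other lists, such as H2-K1 at 0.31. Nor did edgeR call any of 9 adipocyte, 16 skeletal muscle, 8 mesenchymal transition, 11 HER receptor and ligand, 9 Wnt, 24 oxidative phosphorylation, 19 sterol synthesis and 20 ribosomal protein genes. Their medians were -0.25, 0.63, 0.04, -0.03, 0.02, -0.04, 0.15 and -0.10. At an unadjusted p under 0.05, 2 HER, 2 oxidative phosphorylation, 2 sterol and 1 ribosomal gene passed, and DESeq2 called 1 HER and 1 sterol gene. The adipocyte and muscle medians were 0.19 and 0.12 without EV 1. Mki67, the proliferation antigen Ki-67, had a slope of 0.19 ± 0.10. Erbb2, the HER2 receptor, was at 60.6 to 74.6 CPM with a median of 68.1 CPM and a slope of -0.03 ± 0.06 (adjusted p = 0.866, edgeR), whose sign changed without EV 1 or EV 7. Of 11 basal genes, Cdh3 rose (1.03 ± 0.19) and Itgb4 fell (-0.34 ± 0.08). Cdh3 lost its call without EV 7 (adjusted p = 0.0658, edgeR), and Itgb4 lost its call in 5 leave-one-out fits, including that without EV 1 (adjusted p = 0.0576, edgeR). Krt1, a keratin of skin, was called falling on the strength of EV 1 alone, at 23.2 CPM there and at most 0.0518 CPM in the other tumours.

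The T cell and macrophage scores were then used as separate orders. With the T cell score, 460 genes rose and 306 fell. With the macrophage score, 139 rose and 0 fell in edgeR, where 262 genes had a negative slope at an unadjusted p under 0.05. In that order 12 of 24 macrophage genes were called, against 4 with the T cell score, and 0 of the type I, interferon gamma and class I genes were called, of which 14, 0 and 0 rose at an unadjusted p under 0.05. With Ptprc alone as the order, a setting added after the data were seen, 172 genes rose and 1 fell (edgeR). There 458 genes had a negative slope at an unadjusted p under 0.05 (edgeR). Counts of this kind do not show that a gene followed 1 score more than the other. Hspb1 had a slope of -0.97 per unit of the T cell score and -1.79 per unit of the macrophage score, with adjusted p = 0.000956 and 0.747 (edgeR). Spp1 had -0.64 and -1.01 (adjusted p = 0.000256 and 0.734, edgeR), and Ifi27l2a had 0.62 and 1.20 (adjusted p = 0.000645 and 0.377, edgeR).

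The difference between the component scores was tested by fitting both at once. Its contrast, the T cell slope minus the macrophage slope, called 2 genes toward T cells (0.0139% of those tested) and 21 toward macrophages (0.146%). The 5 named on the macrophage side were Fcrls, a microglia and macrophage Fc receptor-like gene (-2.10 ± 0.35), the endothelin receptor Ednrb (-1.87 ± 0.32), the transporter Abcc3 (-1.75 ± 0.30), the cholesterol exporter Abca1 (-1.68 ± 0.24) and the adaptor Pik3ap1 (-1.62 ± 0.20). C1qb, a C1q chain, was called too, at -0.91 ± 0.16. On the T cell side BC023105 (1.45 ± 0.24) and Nptx1 (2.69 ± 0.42) were the only calls. BC023105 has a clone name, which the naming rule leaves out. Nptx1, with a mean of 3.43 CPM, lies below the rule's minimum. Neither met the rule, and both were chosen after their values were seen. Krt77, a skin keratin with a median of 0 CPM, rests on EV 1 and is listed among the 21. Leaving out EV 1 or EV 2 removed all 23 calls, and leaving out EV 5 gave 14 toward T cells and 31 toward macrophages. Ptprc leaned toward the macrophage score at -0.89 ± 0.16 (adjusted p = 0.0552, edgeR). EdgeR called none of the T cell, cytotoxic, interferon, class I, AP-1 or heat shock genes in this contrast. Over all 14363 genes, 583 had an unadjusted p under 0.05 toward T cells and 976 toward macrophages (edgeR). Toward T cells, 6 of 20 T cell, 5 of 11 cytotoxic, 5 of 16 interferon gamma and 11 of 18 class I genes had an unadjusted p under 0.05, and DESeq2 called 1, 2, 1 and 4 of these lists. Toward macrophages, 8 of 23 AP-1 genes and 1 of 25 type I genes had an unadjusted p under 0.05, and DESeq2 called 3 and 0. The macrophage and monocyte list had 18 of 24 toward macrophages at that p, of which edgeR called 2, and DESeq2 called 13. Sterol synthesis had 10 of 19 toward T cells and 1 toward macrophages (DESeq2 6 and 0). Luminal genes had 8 of 20 toward macrophages and 2 toward T cells (DESeq2 4 and 0). TGF-beta genes had 7 of 14 and 1 in these directions (DESeq2 2 and 1). No heat shock gene passed in either direction at that unadjusted p or in DESeq2.

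**Figure D4:**
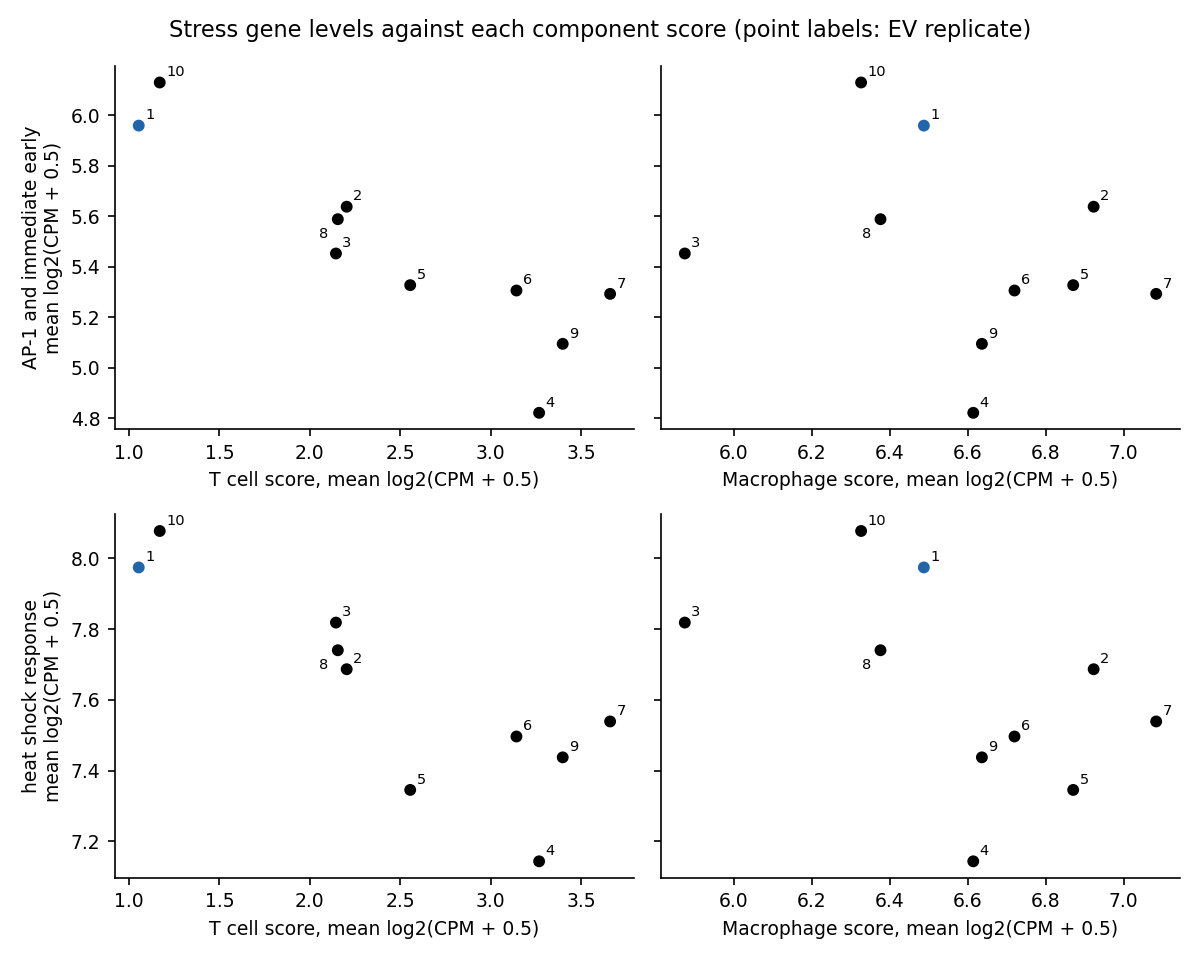
Mean log2(CPM + 0.5) of the 23 AP-1 and immediate early genes (top) and the 20 heat shock genes (bottom) against the T cell score (left) and the macrophage score (right) of the order, 1 point per EV tumour, EV 1 in blue. EV 10 and EV 1 are highest in both lists (6.13 and 5.96, 8.08 and 7.97) and lowest in the T cell score. EV 3, lowest in the macrophage score, is at 5.45 and 7.82, and its heat shock level is the next highest after EV 10 and EV 1.

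Falling genes were unevenly placed on the genome, a pattern seen only after the fit. On chromosome 5, 50 of 962 fitted genes fell (5.20%), against 112 of 13372 on the other chromosomes (0.838%). Without EV 1 these shares were 2.18% and 0.217%, and without EV 10 they were 2.18% and 0.561%. They were 2.9% and 0.786% without EV 7, and 2.6% and 0.367% without EV 9. Rising genes were not as uneven, at 23 of the 962 (2.39%). Of 207 windows of 10 Mb with at least 20 fitted genes above 5 CPM, 4 had a median slope below -0.1, and 3 of these lay on chromosome 5. Its window from 20 to 30 Mb had a median of -0.18 with 9 of 54 genes falling, the one from 140 to 150 Mb had -0.17 with 14 of 77, and the one from 30 to 40 Mb had -0.13 with 7 of 95. The window from 130 to 140 Mb, which holds Hspb1, had -0.08 with 13 of 105. The 6 windows between 60 and 130 Mb had medians from -0.04 to 0.05, and Spp1 lies in one of them. The shifts were small, as the median gene of the 20 to 30 Mb window ranged over 0.31 log2 units between tumours. In that window EV 5, EV 9 and EV 7 deviated by -0.15, -0.13 and -0.13 from the mean, and EV 6 and EV 4 by 0.02 and -0.02. The same tumours, EV 5, EV 9 and EV 7, were lowest from 130 to 140 and 140 to 150 Mb. They were highest from 120 to 130 Mb. The change along the order was therefore uneven in these windows. No test was made of the pattern. Leaving chromosome 5 genes out of the fit gave 409 rising and 110 falling genes. The score and the scaling were kept, so little could change: the main fit had 416 and 112 on the other chromosomes. It does not show whether those genes vary apart from chromosome 5. With the mean level of chromosome 5 genes as a covariate, 242 rose and 33 fell among the rest.

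**Figure D5:**
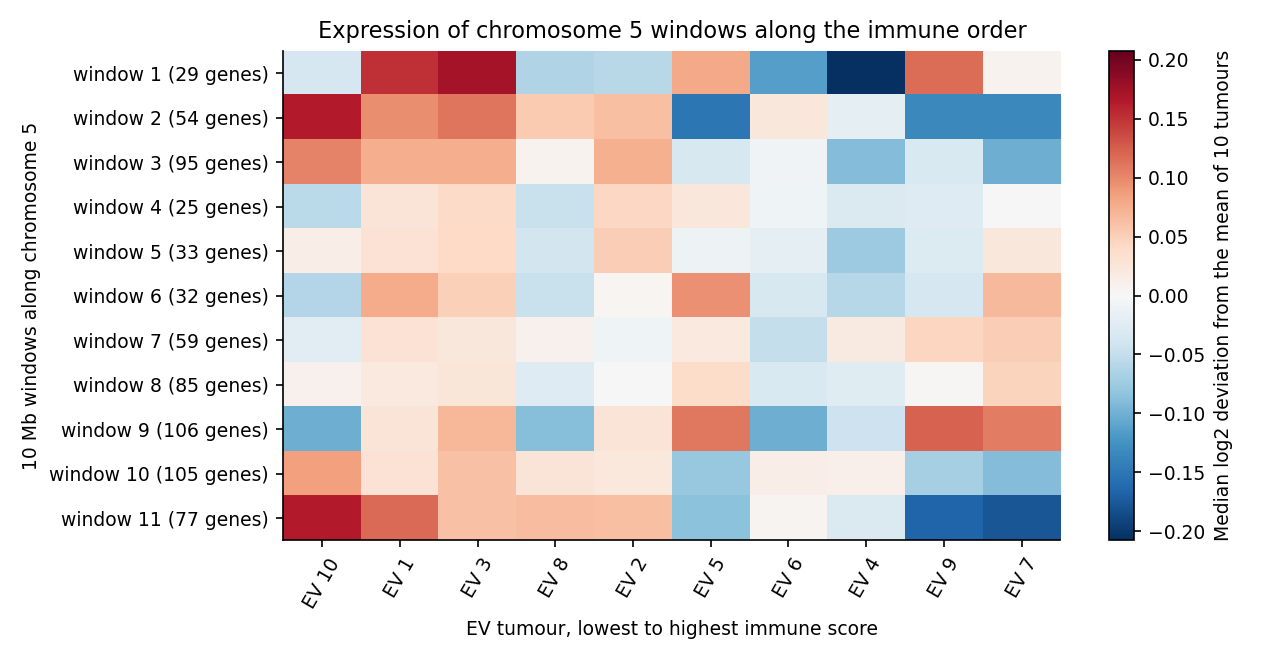
Median log2 deviation from the 10-tumour mean for genes of 11 windows of 10 Mb along chromosome 5 (rows, top to bottom along the chromosome), by EV tumour from lowest to highest immune score. Windows 2, 3, 10 and 11 are above the mean in EV 10 and below it in EV 7, and the windows between are not. In windows 2, 10 and 11, EV 5, EV 9 and EV 7 are lowest while EV 6 and EV 4 lie near the mean, so the change along the order is uneven.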

How the data were processed

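Raw read counts per Ensembl gene were deposited by the authors, 1 column per tumour with no normalization, and the 10 columns of genotype EV were used. Tools listed in the submitters' processing notes are STAR 2.5 and HTSeq 0.6.1, with build mm10. For strand setting and annotation release, nothing is stated in the sources used here. Overlapping genes on opposite strands may therefore share reads. The table held 54532 genes, 24361 of them at 0 in all EV tumours. All 45 pairs of libraries differed beyond sampling noise.

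Counts were scaled by TMM and fitted in edgeR 4.0.16 (R 4.3.3; robust quasi-likelihood) against the immune score, for genes with a mean CPM of at least 1. Adjusted p-values are Benjamini-Hochberg. Correlations used 100000 permutations, two-sided. On simulated counts for this fit (14287 genes), 12 of 68 genes with a slope of 0.3, 50 of 70 with 0.6 and 57 of 62 with 1 were recovered, and 7 of 14079 unchanged genes were called. Each gene was simulated on its own, with no variation shared between genes. These counts may therefore not hold for the real libraries, where genes vary together. Fits with DESeq2 1.42.0, other scalings, filters, pseudocounts, orders and covariates, and without each tumour, were run beside it.

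The tumours, the order and the gene lists (29, and 2 more added later) were chosen with earlier results of these data known. Named genes are the 10 steepest called in each direction with a mean of at least 5 CPM, in every list the 3 genes with the lowest adjusted p, the 5 largest called contrasts of the component scores on each side above the same minimum, Ptprc and Erbb2. Predicted-gene, RIKEN and clone names were left out of the steepest genes and of the contrasts. The text names part of the genes chosen by this rule. Other genes named were chosen after their values were seen.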

Additional observations from a re-analysis of the deposited data

Results flagged for a closer look

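Among 90 values examined over the 10 tumours, 7 had a highest or lowest tumour whose gap to the next exceeded Dixon's critical value, which chance alone does in about 1 in 20. EV 1 accounted for 6. Its skeletal muscle level was 2.92 (nearest 6.62), its keratinocyte level 3.08 (nearest 1.04) and its basal epithelial level 4.50 (nearest 3.58), all as mean log2(CPM + 0.5). Its first principal component was -56.0 (nearest -6.10). On the log2(CPM + 0.5) scale its Krt1 was 4.57 (nearest -0.86) and its Trib3 was 6.38 (nearest 5.61). The remaining one was EV 9, with a level of Wnt ligands and targets of 2.43 (nearest 2.32).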

How the results depend on the processing

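No paired analysis was possible because the labels give no replicate numbers shared between groups and only 1 group was used. The fit as reported had 439 rising and 162 falling genes. DESeq2 gave 673 and 397, the macrophage score as order 139 and 0, the chromosome 5 level as covariate 242 and 33, and Ptprc as order 172 and 1 (458 falling at an unadjusted p under 0.05). The last 2 settings were added after the data were seen. Falling genes alone moved by over 1.5 times with the muscle level as covariate (66), the T cell score (306) and members scaled to SD 1 (68). Without single tumours rising genes ranged from 235 to 507 and falling from 50 to 256. EV 1 (256 and 50), EV 7 (235 rising), EV 10 (267 and 96), EV 3 (256 falling) and EV 9 (74 falling) moved a count by over 1.5 times. RLE scaling, library totals, a minimum of 5 CPM, no filter, a pseudocount of 2 and the rank of the score moved neither count so far. For the contrast of the component scores (2 toward T cells, 21 toward macrophages), library totals gave 1 and 13, a pseudocount of 2 gave 1 and 11, no filter 19 and 89, and DESeq2 77 and 217. A minimum of 5 CPM gave 1 toward T cells, and the muscle covariate 0. Single tumours left out gave 0 to 14 and 0 to 31. The cause of these shifts was not tested.

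Among correlations with the order, none of which passed over all 10 tumours, signs reversed for the share of the 50 most abundant genes with the T cell score (r = 0.10), and with the macrophage score for library total (0.34), mitochondrial share (-0.30), adipocyte level (0.24) and basal level (0.0929). Without single tumours r ranged from -0.31 to 0.19 for library total and -0.31 to 0.0769 for the 50 most abundant genes. It ranged from -0.0730 to 0.15 for mitochondrial share, -0.0160 to 0.59 for muscle and -0.50 to 0.0785 for adipocyte levels. For keratinocyte levels r ran from -0.63 to 0.0431, for basal from -0.575 to 0.30 and for endothelial from -0.0195 to 0.60. For the second principal component it ran from 0.60 to 0.855, the highest value being without EV 1. That component and the score come from the same libraries, so its r is a description. Single slopes that reversed, none called in any setting, were Adipoq (0.0562 with the muscle covariate, 1.02 with the macrophage score), Plin1 (0.93 with the macrophage score), Cidec (0.0511, 1.005, and 0.0030 with Ptprc) and Erbb2 (0.0460 with the macrophage score, -0.0678 to 0.0315 without single tumours, positive without EV 1 or EV 7). Without single tumours Ltf ran from -0.47 to 1.10 and Ccnd1 from -0.0059 to 0.153, both lowest without EV 7. In the simulated counts slopes near 0.3 were mostly missed, so many slopes of that size could go uncalled.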
